A study of Mus musculus with 4 samples.

Results

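The 10 genes of DNA replication described here were followed through a pull-down of RNA with an antibody against Runx1. They were named one by one, and all 10 were found by symbol among the 55573 gene identifiers of the count table. They are Mcm2, Mcm3, Mcm4, Mcm5, Mcm6 and Mcm7 (the replication helicase), Mcm10, Pcna, and Rrm1 and Rrm2 (ribonucleotide reductase). The RNA came from CD31-positive cells, sorted by flow cytometry from the caudal part of wild-type C57BL/6 mouse embryos at embryonic day 10. CD31 (Pecam1) sits on the surface of endothelium and of some blood cells. RNA immunoprecipitation sequencing (RIP-seq) reads the RNA that stays on beads carrying an antibody. There were 2 libraries with the Runx1 antibody and 2 with IgG, an antibody with no intended target, which gives the background. No treatment or mutation distinguishes the groups, which differ in the antibody alone. Whether the replicates are separate embryos or sorts is not stated in the labels. The p-values therefore cover the spread of these libraries, and it may be technical.

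Before a cell copies its DNA, the Mcm2 to Mcm7 proteins are loaded as a ring of 6 different subunits onto replication origins, where they later unwind the double helix. Mcm10, which shares the name but is not a ring subunit, helps to start the helicase, and PCNA is the sliding clamp that holds the DNA polymerases on their template. Ribonucleotide reductase, built from a large subunit (Rrm1) and a small subunit (Rrm2), makes the deoxyribonucleotides that the polymerases use. All of these genes are known to be expressed most strongly as cells enter and pass through S phase, and many are targets of E2F transcription factors. Cells of the growing embryo divide rapidly.

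The promoters are shown first, because the genes are known as E2F targets and the sequences show which of them carry that word close to the start. RefSeq (GRCm38.p6, the same build as mm10) gave promoters for 9 of the 10 genes, with 250 bases before and 50 after the start. The words TTTGGCGC, TTTCGCGC, TTTCCCGC and TTTGCCGC, searched on both strands, stood in the promoters of Mcm3, Mcm5, Mcm6 and Mcm7. No other member with a promoter had one. Of all 32851 promoters of that length, 2.26% held one. The capitals below mark the word on the strand of the gene, and a word found on the other strand appears as its reverse complement.
Mcm6, chr1:128359797-128359826, minus strand: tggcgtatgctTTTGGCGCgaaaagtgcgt
Mcm6, chr1:128359734-128359763, minus strand: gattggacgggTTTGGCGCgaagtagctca
Mcm5, chr8:75109345-75109374, plus strand: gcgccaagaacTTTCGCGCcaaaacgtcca
Mcm7, chr5:138171849-138171878, minus strand: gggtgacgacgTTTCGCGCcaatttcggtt
Mcm3, chr1:20820275-20820304, minus strand: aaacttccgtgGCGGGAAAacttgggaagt
In the first Mcm6 window and in the Mcm5 window a second such word, read on the other strand, overlaps the first. The CCAAT word, searched on both strands, stood in the promoters of all 9 genes and in 37.4% of all promoters, and in the Mcm7 window it shares a base with the E2F word. The RUNX words TGTGGT and TGCGGT, on both strands, stood in the promoters of Mcm3, Mcm6, Mcm10 and Rrm1 and in 22.4% of all promoters. In Rrm1 the RUNX word overlaps a CCAAT word. Both RUNX words shown here are in capitals.
Rrm1, chr7:102441643-102441670, plus strand: ctttcacccaaTGTGGTggaaaggagcg
Mcm6, chr1:128359781-128359808, minus strand: cgaaaagtgcgTGCGGTgggcggggctc
These matches describe the letters of the promoters. The measurements below are of RNA held on beads, and binding to these promoters was not measured here.

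Sequencing gave 1675488 and 1887301 gene counts for the Runx1 antibody, against 3843318 and 2482045 for IgG. A level of 3 counts therefore corresponds to between 0.781 and 1.79 CPM (counts per 1e6 gene counts). Pecam1 and Cdh5, markers of the sorted endothelium, were present in every library, at 79.4 to 103 and 66.1 to 100.3 CPM. The members had a mean level of 79.9 (Rrm2) to 488 CPM (Mcm3) over the 4 libraries, against a median of 29.2 CPM for the 12401 genes that passed the low-count filter and were tested. All 10 members passed that filter. Log2 fold changes compare the Runx1 antibody with IgG and are given ± SE. They come from edgeR's quasi-likelihood test, with libraries scaled by trimmed means (TMM). Benjamini-Hochberg adjusted p over all 12401 genes. The edgeR SE was derived from the test, as the unsigned log2 fold change divided by the square root of the F statistic. With this scaling the values are relative to the typical gene, because gene counts alone do not give the amount of RNA recovered. The spike-in rows of the same table allow another scaling, described below. In bulk RNA, fewer cells of a type and less RNA per cell cannot be told apart.

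Among the helicase subunits, Mcm6 RNA differed most between the antibodies. Mcm6 stood at 553 and 365 CPM with the Runx1 antibody and at 190 and 226 CPM with IgG. Both Runx1 libraries lay above both IgG libraries, and the first Runx1 library was far above the second. The log2 fold change was 1.11 ± 0.23, or 2.16-fold, which did not pass at a false discovery rate of 0.05 (edgeR adjusted p = 0.0797). Other settings put it on either side of that line. Mcm6 was called with DESeq2 (1.11 ± 0.25, adjusted p = 3.05e-04), which called 246 of 5669 genes higher. Limma-voom called it (1.1 ± 0.22, adjusted p = 0.0280), with 102 of 12401 genes higher. In edgeR it was called with no low-count filter (adjusted p = 1.49e-04, 224 of 22242 genes higher). A stricter filter also called it (edgeR adjusted p = 0.0159, 125 of 9367 genes higher). It was not called with replicate number as a block (edgeR adjusted p = 0.189) or with library totals alone (edgeR adjusted p = 0.0738). Nor was it after correction for transcript length and GC content (edgeR adjusted p = 0.07). Leaving out a library gave 0.76 without Runx1 replicate 1 and 1.36 without Runx1 replicate 2. Without IgG replicate 1 it was 0.98, and without IgG replicate 2 it was 1.23. With the spike-in scaling described below the value was -0.14 ± 0.35. Mcm6 lies at chr1:128331590-128359664 on the minus strand of mm10.

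Mcm3 was the most abundant of the 10 RNAs. It stood at 462 and 721 CPM with the Runx1 antibody and at 371 and 398 CPM with IgG, so that the groups did not overlap, and here the second Runx1 library was the higher one. The fit put the change at 0.60 ± 0.22 on the log2 scale, short of the threshold (edgeR adjusted p = 0.271). The value rested on Runx1 replicate 2: without it the change was 0.21, and without Runx1 replicate 1 it was 0.85. Mcm3 lies at chr1:20802968-20820312 on the minus strand.

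Mcm4 stood at 473 and 372 CPM with the Runx1 antibody against 307 and 264 CPM with IgG. The groups did not overlap, and the change of 0.54 ± 0.19 (log2) was not called (edgeR adjusted p = 0.251), with 0.33 when Runx1 replicate 1 was left out. Mcm7 stood at 460 and 286 CPM against 225 and 236 CPM, again with no overlap. On the log2 scale this is 0.66 ± 0.24, which missed the threshold (edgeR adjusted p = 0.261). Like Mcm6, Mcm7 was higher in the first Runx1 library than in the second. Its change was 0.26 without Runx1 replicate 1 and 0.95 without Runx1 replicate 2.

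Mcm2 was nearly equal in the Runx1 libraries, at 226 and 219 CPM, and stood at 127 and 169 CPM with IgG. The groups did not overlap, and the change of 0.56 ± 0.24 (log2) was not called (edgeR adjusted p = 0.335), with 0.35 without IgG replicate 1. Mcm5 was the helicase subunit with overlapping groups, at 207 and 266 CPM against 162 and 215 CPM. Its log2 fold change was 0.30 ± 0.24 (edgeR adjusted p = 0.652), and it came to 0.085 without Runx1 replicate 2. Mcm4 lies at chr16:15623897-15637400 (minus strand), Mcm7 at chr5:138164583-138172422 (minus strand), Mcm2 at chr6:88883474-88898780 (minus strand) and Mcm5 at chr8:75109569-75128439 (plus strand).

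The 6 helicase genes together held 2381 and 2230 CPM with the Runx1 antibody and 1381 and 1508 CPM with IgG. That is 2305 ± 107 against 1445 ± 90.4 CPM (mean ± SD, n = 2 and 2), a log2 difference of 0.68. An exact two-sided permutation test over the 6 arrangements of the libraries gave p = 0.3333, the smallest it can give. The most variable subunits in the Runx1 libraries were Mcm7, Mcm3 and Mcm6, with coefficients of variation of 33.0%, 31.0% and 29.0%, and the least variable was Mcm2 with 1.98%. With IgG, Mcm7 and Mcm3 varied by 3.55% and 4.90%, and Mcm6 by 12.4%. Counting error alone, with each read taken as independent, would give Mcm3, Mcm6 and Mcm7 at most 4.30%. Per spike-in count the sum was lower with the Runx1 antibody, by a log2 difference of -0.62.

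**Figure D1:**
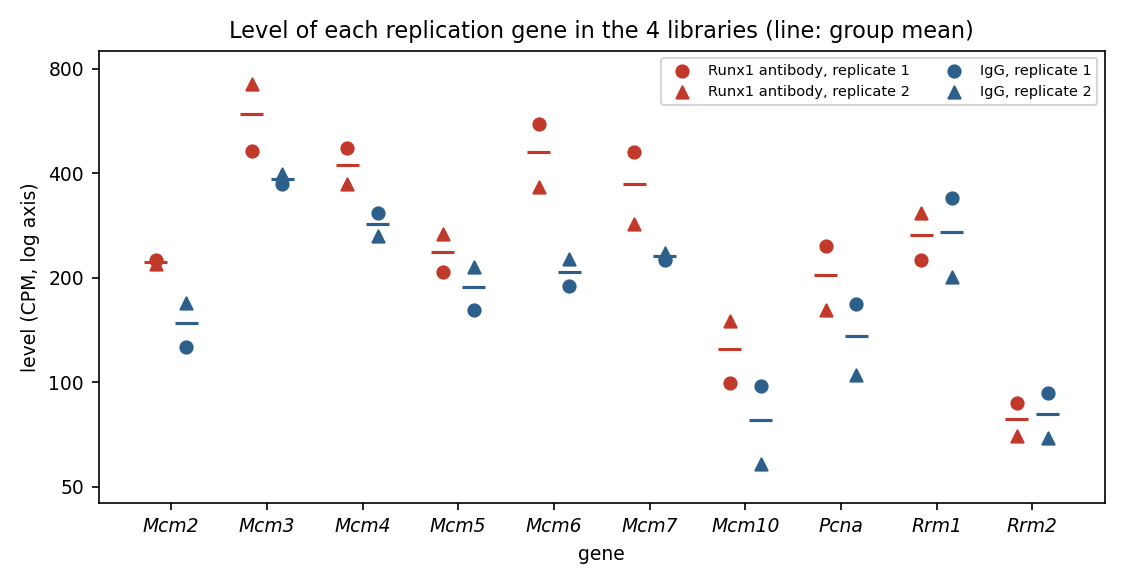
Level of each gene in CPM (log axis) in the 4 libraries, with circles for replicate 1, triangles for replicate 2 and a line at each group mean. The points of Mcm2, Mcm3, Mcm4, Mcm6, Mcm7 and Mcm10 do not overlap between the antibodies, while those of Mcm5, Pcna, Rrm1 and Rrm2 do. These levels are relative to the gene total, and the direction turns under the spike-in scaling.

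Mcm10 and Pcna act at the fork beside the helicase. Mcm10 stood at 99.7 and 150 CPM with the Runx1 antibody and at 97.8 and 58.0 CPM with IgG. The groups did not overlap, but the lower Runx1 library and the higher IgG library were almost level. A log2 difference of 0.65 ± 0.37 resulted and was not called (edgeR adjusted p = 0.494), and leaving out single libraries moved it between 0.30 (without Runx1 replicate 2) and 1.07 (without IgG replicate 1). Pcna stood at 246 and 161 CPM against 168 and 105 CPM, with overlapping groups. Its log2 fold change was 0.55 ± 0.31 (edgeR adjusted p = 0.491), between 0.19 without Runx1 replicate 1 and 0.92 without IgG replicate 1. The replicates of each antibody differed as much as the antibodies did, with replicate 2 at 0.653 and 0.625 of replicate 1. Mcm10 lies at chr2:4989714-5012791 and Pcna at chr2:132249162-132253314, both on the minus strand.

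The reductase genes had fold changes near 0, with wide errors. Rrm1 stood at 224 and 306 CPM with the Runx1 antibody and at 340 and 201 CPM with IgG, so that the IgG libraries enclosed the Runx1 libraries. Its log2 fold change was -0.056 ± 0.28 (edgeR adjusted p = 0.966). Rrm2 stood at 87.1 and 69.9 CPM against 93.2 and 69.3 CPM, which is -0.081 ± 0.35 on the log2 scale (edgeR adjusted p = 0.959). The 95% intervals of these changes, built from the edgeR SE and a t distribution, were wide. They ran from -0.70 to 0.58 for Rrm1 and from -0.87 to 0.71 for Rrm2. The missed threshold therefore does not show that the RNAs were held alike by the antibodies. The sign of both genes turned when a library was left out, to 0.36 for Rrm1 and 0.14 for Rrm2 without IgG replicate 1. Rrm1 also turned, to 0.15, after correction for the length and GC content of transcripts.

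Rrm1 lies at chr7:102441695-102469771 and Rrm2 at chr12:24708241-24714146, both on the plus strand. The ratio of Rrm2 to Rrm1 counts does not depend on the scaling between libraries. It was 0.388 and 0.228 in the Runx1 libraries, against 0.274 and 0.345 in the IgG libraries, with a log2 difference of -0.046 (exact two-sided permutation p = 1, n = 2 and 2). Per length of transcript, Rrm2 RNA stood at 0.416 to 0.708 of Rrm1 RNA in the 4 libraries. A second ratio of this kind, chosen after the values were seen and given without a test, sets the Mcm2 to Mcm7 counts over the Rrm1 and Rrm2 counts. It was 7.64 and 5.93 in the Runx1 libraries, against 3.18 and 5.59 in the IgG libraries. The second library of each antibody gave nearly the same ratio, and the first libraries stood far apart.

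Of the 10 genes, 0 were called higher and 0 lower in edgeR, where 0.306% of all tested genes were called higher and 0.339% lower. DESeq2 called 1 higher and 0 lower. It gave an adjusted p to 5669 genes, and of these it called 4.34% higher and 6.07% lower. Limma-voom called 1 higher and 0 lower, where it called 0.823% and 0.968% of all 12401 tested genes. The gene was Mcm6 in both. Without adjustment, 5 genes (Mcm2, Mcm3, Mcm4, Mcm6 and Mcm7) had an edgeR p under 0.05 and were higher, and 0 were lower. That threshold was passed upward by 6.88% and downward by 7.35% of all tested genes, and upward by 11.5% of the 2944 genes at least as abundant as Rrm2. In 6 of the 10 genes both Runx1 libraries lay above both IgG libraries, as in 24.1% of all tested genes and 23.5% of those at least as abundant as Rrm2, and in 0 did they lie below, as in 21.3%. The median log2 fold change of the 10 was 0.55, beside 0.027 for all genes tested. After the trend with transcript length and GC content was removed in each library it was 0.42.

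Scaling to the ERCC spike-ins, synthetic RNAs added to a sample, turned the direction. The amount and the step of addition are not stated in the labels. The spike-in rows held 596 and 713 counts in the Runx1 libraries and 494 and 434 in the IgG libraries, although the IgG libraries were deeper. With this scaling the median of all genes tested moved by -1.28 on the log2 scale, and all 10 genes had a negative value. Rrm1 (-1.40 ± 0.39, edgeR adjusted p = 0.0121), Rrm2 (-1.38 ± 0.47, edgeR adjusted p = 0.0327) and Mcm5 (-0.95 ± 0.35, edgeR adjusted p = 0.0461) were then called lower, where 31.6% of all tested genes were called lower and 0.153% higher. Measured from the median gene of that fit, Mcm6 stood at 1.12, the other helicase genes at 0.30 to 0.66, Mcm10 at 0.56, Pcna at 0.49, Rrm1 at -0.14 and Rrm2 at -0.13. The order of the genes was thus nearly that of the first scaling, and what the spike-ins moved was the zero line.

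**Figure D2:**
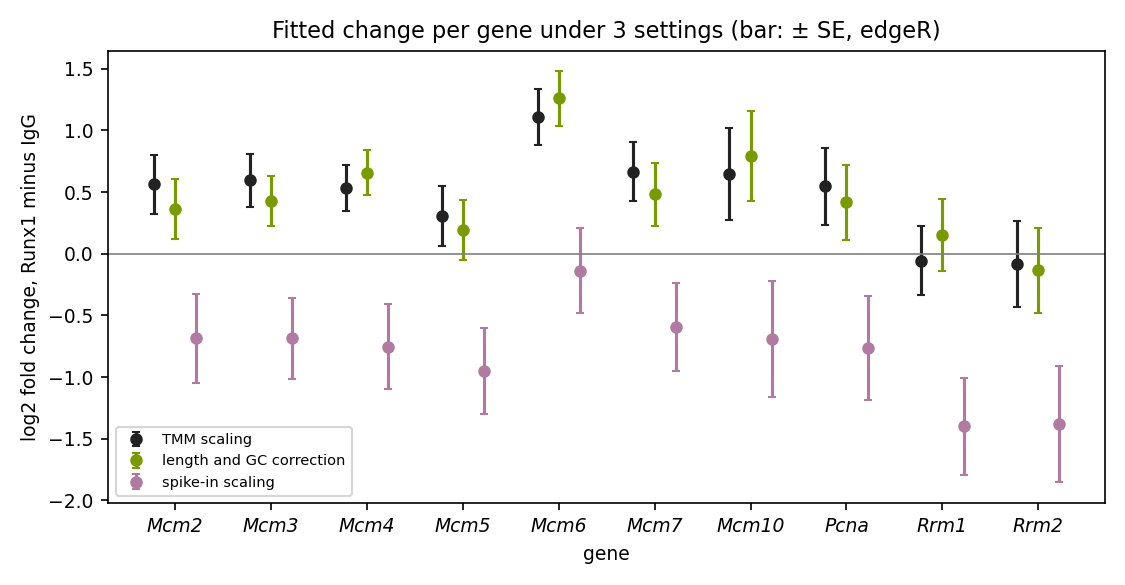
Log2 fold change of each gene (Runx1 minus IgG) with ± 1 SE from edgeR, under TMM scaling (black), with the correction for length and GC content (green) and with spike-in scaling (purple). Mcm6 is the highest under all 3 settings, at 1.11, 1.26 and -0.14, and Rrm1 and Rrm2 are the lowest. Every gene is below 0 under the spike-in scaling.

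The make-up of the helicase RNA can be read within each library, free of any scaling between libraries. Mcm6 made up 23.2% (exact 95% binomial interval 21.9% to 24.6%) and 16.3% (15.2% to 17.5%) of the Mcm2 to Mcm7 counts with the Runx1 antibody. With IgG it made up 13.7% (12.8% to 14.7%) and 14.98% (13.9% to 16.2%). These intervals cover counting error within a library and not the spread between libraries. No molecular identifiers are named in the labels, so duplicate reads could make the intervals too narrow. The share was highest in the first Runx1 library, and the intervals of the second Runx1 and the second IgG library overlapped. Mcm3 made up 19.4% and 32.3% with the Runx1 antibody, on either side of the 26.9% and 26.4% with IgG. Mcm7, at 19.3% and 12.8% against 16.3% and 15.7%, did the reverse. Mcm4 made up 19.9% and 16.7% against 22.2% and 17.5%, Mcm5 8.70% and 11.95% against 11.7% and 14.3%, and Mcm2 9.48% and 9.84% against 9.18% and 11.2%. In the shares of Mcm3, Mcm5, Mcm6 and Mcm7 the Runx1 libraries lay farther apart than the IgG libraries did, and in those of Mcm2 and Mcm4 the IgG libraries did.

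**Figure D3:**
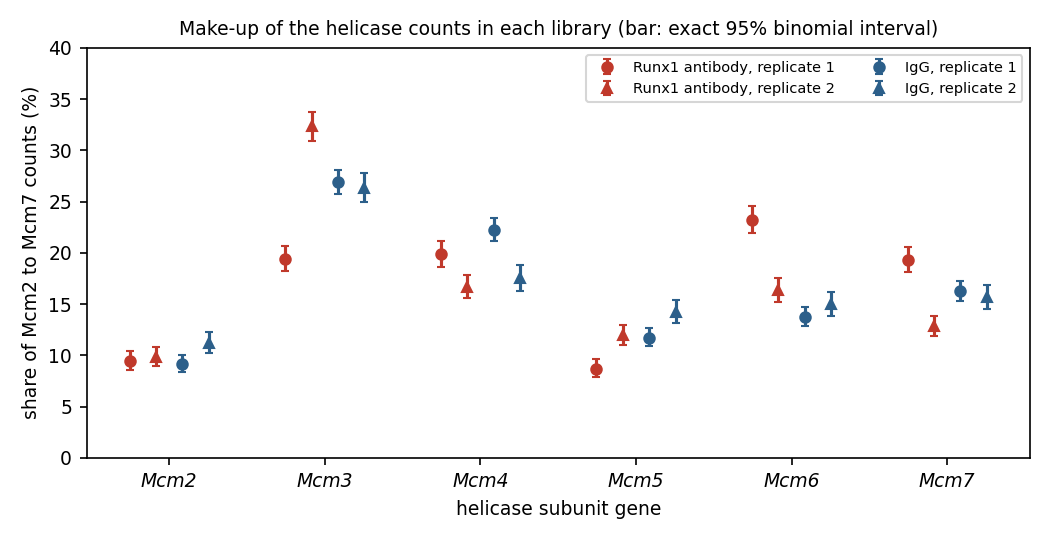
Share of each subunit in the Mcm2 to Mcm7 counts of a library (percent), with exact 95% binomial intervals as bars, in red for the Runx1 antibody and blue for IgG. Mcm3 lies at 19.4% and 32.3% in the Runx1 libraries and at 26.9% and 26.4% with IgG, and Mcm6 is highest in the first Runx1 library at 23.2%.

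Levels of different genes were compared per length, as CPM per kilobase of the longest protein-coding transcript. With IgG, Mcm3 was the highest at 127 ± 6.21 CPM per kilobase (mean ± SD, n = 2) and Mcm10 the lowest at 16.0 ± 5.79. Between them came Pcna (89.7), Mcm4 (79.6), Mcm7 (77.8), Rrm1 (67.7), Mcm5 (55.8), Mcm6 (47.7), Mcm2 (43.9) and Rrm2 (37.0). Only Mcm3 and Mcm10 were separated from their neighbours in that order in both IgG libraries, and the ranges of all other neighbours overlapped. With the Runx1 antibody the order was Mcm3 (195 ± 60.5), Pcna (134), Mcm7 (126), Mcm4 (118), Mcm6 (105), Mcm5 (70.0), Rrm1 (66.4), Mcm2 (66.0), Rrm2 (35.8) and Mcm10 (25.6 ± 7.31). Here the ranges left a gap between Mcm6 and Mcm5, between Mcm2 and Rrm2, and between Rrm2 and Mcm10.

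The transcripts were compared with those of other tested genes in length, GC content and 3′ UTR length. Their lengths ran from 1518 (Pcna) to 4867 bases (Mcm10), with a median of 3376 against 3469 for the tested protein-coding genes. GC content ran from 44.4% (Rrm1) to 55.5% (Mcm2), with a median of 48.0% against 49.8%. The 3′ UTR was shorter than the tested median of 1294 bases in 8 of the 10 genes, with Mcm7 the shortest at 139 and Mcm6 the longest at 1891 bases. Near-identical copies took few reads. Pcna-ps2 held 1, 1, 2 and 2 counts in the Runx1 and IgG libraries in turn, the Mcm7 pseudogene Gm5487 held 2, 0, 0 and 0, and the Rrm2 pseudogene Gm48455 held 0 in each. Mcm7 is the one member whose exons overlap other genes, over 321 bases with Ap4m1 and 64 with Cops6 on the opposite strand, and over the microRNA genes Mir25 and Mir93. The strand setting of the counting is not given in the sources used here, so reads from these stretches cannot be told apart, and Mcm7 is uncertain to that extent. Ap4m1 itself held 26, 36, 140 and 70 counts.

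The genes around the members in the replication pathway were read from 5 lists. With TMM scaling, edgeR called 0 genes of these lists in either direction. With spike-in scaling, where 31.6% of all tested genes were called lower, it called lower 12 of 33 tested genes of polymerases and the fork, 8 of 35 of nucleotide supply, 10 of 25 of origin licensing and firing, 10 of 21 of S-phase entry and 7 of 18 of mitosis. For the 33 tested genes of polymerases and the fork, the median log2 fold change was 0.43 (0.20 after the correction for length and GC content), and without adjustment 6 were higher and 1 lower (edgeR p under 0.05). At that threshold 6.88% of all tested genes were higher and 7.35% lower. Among the 2944 genes at least as abundant as Rrm2, 11.5% were higher. Topoisomerase Top2a stood at 1136 and 1268 CPM against 726 and 845 CPM (0.59 ± 0.13, edgeR adjusted p = 0.0985). Pole, the catalytic subunit of the leading-strand polymerase, stood at 67.4 and 49.8 CPM against 12.8 and 10.5 CPM (2.30 ± 0.53, edgeR adjusted p = 0.102). The primase-linked polymerase alpha had one subunit on each side: Pola2 at 1.25 ± 0.34 and the catalytic Pola1 at -1.12 ± 0.43. DESeq2 called Top2a, Pole and Pola2 higher (4.34% of its 5669 genes called higher). Limma-voom called Top2a (0.823% of all tested genes called higher), and so did edgeR after the correction for length and GC content (0.234%).

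Genes of nucleotide supply outside ribonucleotide reductase had a median of 0.23 over 35 tested genes (0.24 after the length and GC correction), with 5 higher and 2 lower at an unadjusted edgeR p under 0.05. Of all tested genes, 6.88% were higher and 7.35% lower at that threshold, and of the 2944 genes at least as abundant as Rrm2, 11.5% were higher. The 4 genes with the smallest p were 3 higher and 1 lower. Impdh2, the first committed enzyme of guanine nucleotide synthesis, stood at 208 and 275 CPM against 117 and 94.7 CPM (1.16 ± 0.26, edgeR adjusted p = 0.0977). Thymidine kinase Tk1 stood at 64.5 and 89.6 against 21.9 and 24.6 CPM (1.70 ± 0.44, edgeR adjusted p = 0.140). The purine synthesis gene Gart stood at 53.7 and 101 against 21.9 and 8.06 CPM (2.32 ± 0.60, edgeR adjusted p = 0.145). Gmps, which makes GMP from the product of Impdh2, stood at 111 and 95.9 against 187 and 170 CPM (-0.82 ± 0.25, edgeR adjusted p = 0.204). DESeq2 called Impdh2, Tk1 and Gart higher (4.34% of its 5669 genes), and limma-voom called Impdh2 (0.823% of all tested genes).

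The genes that load and fire origins had a median of -0.12 over 25 tested genes, which turned to 0.050 after the length and GC correction, with 1 higher and 1 lower at an unadjusted edgeR p under 0.05. Of all tested genes, 6.88% were higher and 7.35% lower at that threshold. In this list Gins4, a subunit of the GINS complex that joins the helicase, stood at 2.45 ± 0.79, and the licensing factor Cdt1 at 0.83 ± 0.37. Mcm8 and Mcm9, relatives of the ring subunits that form a separate helicase in DNA repair, stood at -1.57 ± 0.68 and -1.83 ± 0.82. Mcm8 held 7.16 and 28.1 CPM against 43.2 and 60.4 CPM, and Mcm9 5.97 and 10.1 against 12.2 and 44.3 CPM, both with no overlap between the antibodies (edgeR adjusted p = 0.342 and 0.363). In 21.3% of all tested genes the Runx1 libraries likewise lay below. With TMM scaling their values had the opposite sign to those of Mcm2 to Mcm7, while with spike-in scaling all 8 genes were below 0, with Mcm8 (-2.83) and Mcm9 (-2.98) called lower. The control of S-phase entry had a median of -0.19 over 21 genes (-0.028 after the length and GC correction), with 0 higher and 1 lower at an unadjusted edgeR p under 0.05, beside the same shares of all tested genes. The lower gene was Tfdp1, the partner with which E2F proteins bind DNA, at 502 and 345 against 806 and 556 CPM (-0.72 ± 0.23, edgeR adjusted p = 0.210). DESeq2 called it lower, as it did 6.07% of its 5669 genes. E2f6 (-1.57 ± 0.90), E2f4 (-0.80 ± 0.52) and E2f2 (0.77 ± 0.50) had the next smallest p.

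Genes of mitosis had a median of 0.46 over 18 genes (0.45 after the length and GC correction), with 4 higher and 0 lower at an unadjusted edgeR p under 0.05. They were the cyclins Ccnb2 (1.85 ± 0.52) and Ccnb1 (1.31 ± 0.53), the kinetochore motor Cenpe (0.56 ± 0.16) and the checkpoint kinase Bub1b (0.75 ± 0.26), with edgeR adjusted p from 0.169 to 0.317. Of all tested genes, 6.88% were higher and 7.35% lower at the unadjusted threshold, and of the 2944 genes at least as abundant as Rrm2, 11.5% were higher. DESeq2 called Ccnb2 and Cenpe higher (4.34% of its 5669 genes), and limma-voom called 0. After the length and GC correction edgeR called Cenpe and Cenpf, another kinetochore gene, higher (0.234% of all tested genes). Cenpf is named because of that call, after its values were seen. All 5 list medians were below 0 under the spike-in scaling, from -1.48 (S-phase entry) to -0.85 (polymerases and fork), against -1.25 for all genes tested and -0.72 for the 10 members.

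**Figure D4:**
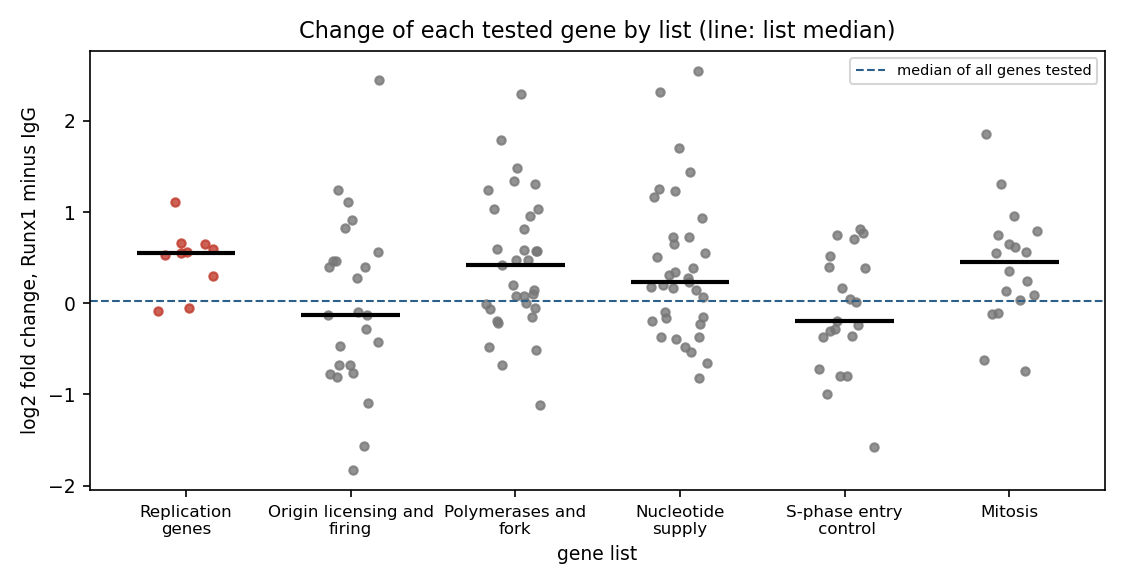
Log2 fold change (Runx1 minus IgG) of each tested gene, by list, with a thick line at the list median and a dashed line at the median of all genes tested (0.027). The 10 replication genes in red have a median of 0.55, the other lists run from -0.19 to 0.46, and all of these medians are below 0 under the spike-in scaling.

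The genes whose profile over the 4 libraries lay nearest to the mean profile of the 10 members were Pgk1, Gm3364, Arhgap28, Rbm25 and Rtn4ip1. Likeness was the Euclidean distance between log2 CPM values centred on each gene's mean, over 4389 genes with a mean of at least 50 CPM. The distances were 0.0087 for Pgk1, an enzyme of glycolysis, 0.038 for Gm3364, 0.043 for Arhgap28, 0.060 for the splicing factor gene Rbm25 and 0.087 for Rtn4ip1. Pgk1 stood at 594 and 567 CPM with the Runx1 antibody against 430 and 385 CPM. These genes were picked as the nearest, so their distances cannot be set against those of the members. Among the members, Mcm4 (0.22) was closest to the mean profile, and Rrm1 (0.75) and Mcm6 (0.77) were farthest from it.

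Of the markers of other cells, 0 were called in edgeR in any list. The sums of the erythroid, macrophage, mesenchymal and neural lists were higher in both Runx1 libraries than in either IgG library, and those of the other lists overlapped. The 11 erythroid markers summed to 884 and 884 CPM with the Runx1 antibody and to 509 and 466 CPM with IgG. All 8 tested erythroid markers had a change above 0, beside 51.5% of all tested genes. The 10 macrophage markers summed to 152 and 231 CPM against 102 and 103 CPM, with 4 of 6 tested above 0. Endothelial markers summed to 1594 and 1316 against 1621 and 1496 CPM, and mesenchymal markers, led by Pdgfra, to 1500 and 1548 against 1453 and 1332 CPM. Epithelial markers summed to 181 and 170 against 173 and 133 CPM, neural markers to 769 and 620 against 587 and 577 CPM, and other haematopoietic markers to 191 and 281 against 291 and 247 CPM. None of these lists had a marker at 0 in all libraries. The part of erythroid, macrophage, mesenchymal and neural RNA in the values of the replication genes was not tested. Nor was that of the depth, which was higher in both IgG libraries.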

How the data were processed

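The authors deposited 1 table of raw counts per Ensembl gene for 4 RIP-seq libraries, with no normalization. The tools named, per the submitters' processing notes, are STAR 2.7.3a, Salmon 1.1.0 and Trimmomatic 0.36, with the mm10 build. Annotation, strand setting and rounding of estimates: not given in the sources used here. Identifiers were named with GENCODE M21 (55480 of 55573 found). The 92 spike-in rows stayed out of library sizes and tests. The gene test was edgeR 4.0.16 under R 4.3.3 (quasi-likelihood fit, TMM, filterByExpr with a minimum count of 10 and total of 15, no block, two-sided) at a false discovery rate of 0.05, and the test was tested on simulated data. Alternatives were DESeq2 1.42.0, limma-voom (limma 3.58.1), other scalings and filters, a replicate block, libraries left out, a correction for length and GC content (splines with 5 degrees of freedom), and added copies (blastn 2.17.0, at least 200 bases at 95% identity). The genes, lists and tests were chosen with earlier results of these data known. Named genes were all members, up to 4 genes per list with the smallest p, and the 5 nearest profiles.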

Additional observations from a re-analysis of the deposited data

How the results depend on the processing

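Over the whole table, 38 genes were higher and 42 lower of 12401 tested. There were 224 and 325 of 22242 with no low-count filter, and 125 and 160 of 9367 with 10 counts in all 4 libraries. DESeq2 called 246 and 344 of 5669. Of 12401 genes, limma-voom called 102 and 120, a false discovery rate of 0.1 gave 106 and 124, and spike-in scaling gave 19 and 3914. The correction for length and GC content gave 29 and 6, and with a replicate block 17 and 2. Leaving out 1 library gave 94 to 248 higher and 80 to 352 lower. Of the 10 members, 1 was higher (Mcm6) with no filter, with the stricter filter, with DESeq2, with limma-voom and at the looser rate. With spike-in scaling 3 members were lower.

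The members' median stayed between 0.39 and 0.57 with 1 library left out, was 0.42 after the length and GC correction and -0.72 with spike-in scaling. The 8 genes of the ring, Mcm10 and Pcna kept a value above 0 in each alternative but the spike-in scaling, which gave Mcm2 -0.69, Mcm3 -0.69, Mcm4 -0.75, Mcm5 -0.95, Mcm6 -0.14, Mcm7 -0.60, Mcm10 -0.69 and Pcna -0.77, and turned the helicase sum to -0.62. Rrm1 ran from -0.40 to 0.36 and Rrm2 from -0.29 to 0.14 with 1 library left out, and Rrm1 was 0.15 after the length and GC correction and 0.18 with the block added. The log2 difference of the Rrm2 to Rrm1 ratio ran from -0.43 to 0.34, and that of the helicase sum from 0.61 to 0.74, with 1 library left out. The cause of these changes was not tested.

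With a replicate block, edgeR called 2 genes higher and 0 lower (1565 had an unadjusted p under 0.05), the members' median was 0.56, and Mcm6 stood at 1.09 ± 0.24 (edgeR adjusted p = 0.189). Whether the numbers pair the libraries is not stated in the labels. The deviations of the same-numbered libraries from their group means correlated at 0.0044 over genes, which cannot settle how the libraries were prepared. With near-identical copies added, Mcm7 stood at 0.54 ± 0.23 (edgeR adjusted p = 0.326). The added copies included Ap4m1, whose stretch is the overlap with Mcm7. Where 1 library was left alone in a group, it was assumed to vary like the other group. Rrm2, the least abundant member, rested on 132 to 358 counts.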
